A study of Rattus norvegicus with 48 samples.

Results

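The left ventricle of Dahl salt-sensitive rats kept on 0.1% NaCl is described here, with the effect of a single dose of an antibody against marinobufagenin. It was measured on 12 of the 48 arrays of the series: 6 left ventricles from animals given the antibody, LV_lsab in the titles, and 6 from animals given control IgG, LV_lsc. The 12 arrays were chosen by diet, tissue and treatment in the labels, and the spread between animals was taken from these 12 arrays only. All animals were male rats of the inbred strain SS/JrHsd, which becomes hypertensive on a salt-rich diet. The antibody group received the monoclonal antibody 3E9 and the control group a mouse isotype IgG1, each once into the abdominal cavity at 50 µg IgG per kg. Per the labels, the diets began at 6 weeks of age and lasted 8 weeks. By the same labels the dose was given at week 7 of the diet and at 15 weeks of age, and the tissue is given as 16 weeks old. These ages and diet weeks do not add up to each other, and no order is drawn from them. The labels give 7 treated animals in each group, of which 6 were arrayed. The labels call the tissue lateral ventricle in the titles and left ventricle in the design text. Each array holds the RNA of 1 animal, so the p-values measure the spread between animals.

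Marinobufagenin is an endogenous steroid that binds and inhibits the Na/K-ATPase, the pump that keeps sodium out of the cell, and it rises in salt-loaded animals. The pump also acts as a signalling receptor through Src kinase, and the pathway is studied in the heart for its link to collagen synthesis and fibrosis. The animals described here received the antibody without a salt load.

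No probe passed the test between the antibody and control ventricles after correction for multiple testing. Among 7870 probes that passed the filter on dim signals, limma with Benjamini-Hochberg adjustment called 0 probes (0%), with a smallest adjusted p of 0.275 that 11 probes shared. At an unadjusted p below 0.05, 437 probes (5.55%) passed, 194 of them higher with antibody (2.47%) and the others lower (3.09%), against 393.5 that independent probes without any difference would give. The groups did not overlap at 16 probes (0.203%), 4 with every antibody array above every control array (0.0508%) and 12 with every antibody array below (0.152%). Differences were small throughout. The log2 fold change, antibody over control, had a median of 0.0028 over all tested probes, ran from -0.87 to 1.12, and exceeded 1 in size at 1 probe, that of Pdk4. The median half-width of the 95% interval was 0.27 on the log2 scale, a 1.21-fold change, and for 7832 probes (99.5%) the interval lay within 2-fold in either direction.

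The groups did not differ beyond their spread in 4 measures of array quality. The antibody arrays had 7845 ± 286 detected probes and the control arrays 7994 ± 316 (SD, n = 6 each; exact two-sided permutation test over all splits, p = 0.396). That difference of -149 probes was -351 with a detection limit of 0.01 (exact permutation p = 0.0671), and with 1 array left out it ran from -251, without antibody replicate 5, to -75.2, without antibody replicate 6 (exact permutation p up to 0.667). The log2 95th percentile of signal averaged 10.40 in antibody and 10.54 in control arrays (exact permutation p = 0.299), and every pair of arrays correlated between 0.967 and 0.990 over the tested probes. Adjusted over the 4 measures, each p was 0.396. The defining markers of cardiac muscle were present: 10 of 12 probes for cardiomyocyte markers were detected on all 12 arrays, among them Myh6, Tnnt2, Tnni3 and Myl2. Markers of kidney tubules and glomeruli (0 of 7 probes tested), T cells (0 of 6), neutrophils (0 of 6) and B cells (0 of 2) did not pass the filter.

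**Figure D1:**
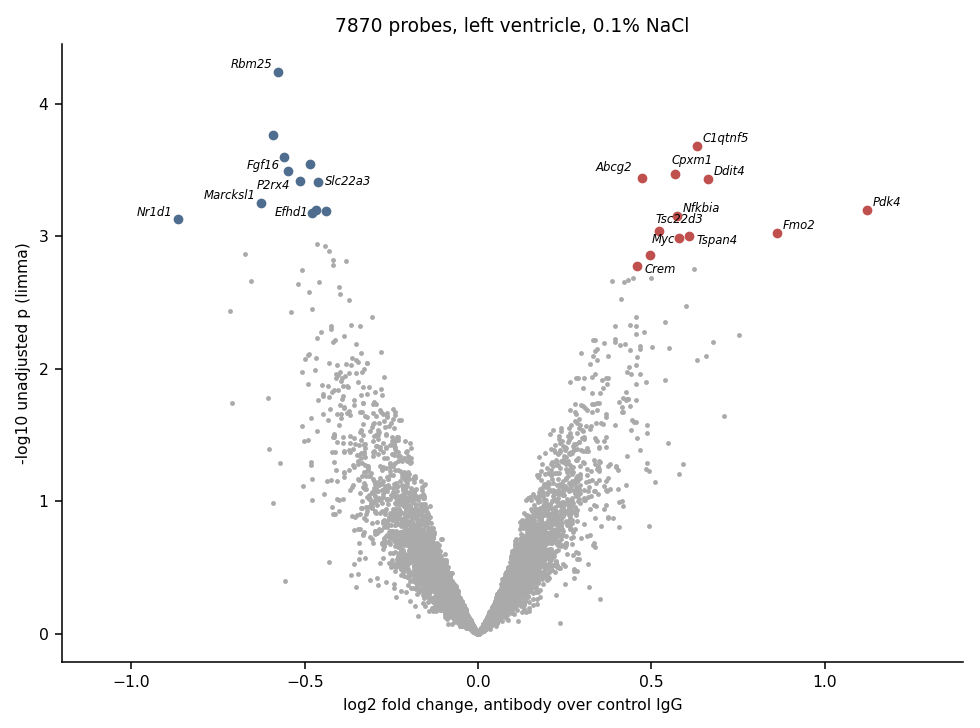
Log2 fold change of each of the 7870 tested probes (x axis, antibody over control IgG) against -log10 of its unadjusted limma p (y axis). The 12 probes with the smallest p in each direction are coloured, and those with a gene name are labelled. No probe passed after adjustment, and Pdk4 is the only probe beyond 1 on the log2 scale.

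The leading genes are the 12 probes with the smallest p in each direction and the member with the smallest p in each gene list. Other list members named further on, for their role or for an unadjusted p below 0.05, were chosen after their values were seen. None of the probes named passed the adjusted threshold on low salt. In the sentences that follow, higher and lower describe the means only. Of the 12 higher probes 11 have a gene name, and of the 12 lower probes 7 have one. In 2 of the 12 higher and 7 of the 12 lower probes the groups did not overlap, which the choice by small p favours.

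The widest difference was in Pdk4, the kinase that switches off pyruvate dehydrogenase and so turns the heart from glucose to fat. Its log2 intensity ran over 9.37, 10.22 and 11.10 (lowest, median, highest) in antibody ventricles, against 8.55, 9.04 and 9.98 in control ventricles. One control array, replicate 3, reached into the antibody range, and the other 5 control arrays lay below all antibody arrays. The log2 fold change was 1.12 ± 0.26 (SE), or 2.18-fold, with an adjusted p of 0.325. Ddit4, an inhibitor of the growth kinase mTORC1, ran over 8.86, 9.16 and 9.31 in antibody ventricles, against 7.92, 8.55 and 8.82 in control ventricles. Every antibody array lay above every control array, with a log2 fold change of 0.66 ± 0.15 (SE) and an adjusted p of 0.275. Cpxm1, a secreted member of the carboxypeptidase family, was the other of the 12 with no overlap, at 6.29, 6.50 and 6.71 in antibody ventricles and 5.45, 6.01 and 6.19 in control ventricles. Cpxm1 was dim, detected on all 6 antibody arrays and on 5 of 6 control arrays. It thus needed antibody arrays to pass the filter, which favours a higher mean.

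Other genes with higher means were Nfkbia, the inhibitor of NF-kappa B, at 0.57 ± 0.14, and Tsc22d3, which encodes the glucocorticoid-induced leucine zipper, at 0.52 ± 0.13. Fmo2, a flavin monooxygenase, stood at 0.86 ± 0.21 and Tspan4, a tetraspanin of the cell membrane, at 0.61 ± 0.15. The growth regulator Myc stood at 0.58 ± 0.14 and the cyclic AMP responsive factor Crem at 0.46 ± 0.12, each a log2 fold change with its SE. C1qtnf5, a secreted C1q-like protein (0.63 ± 0.13), and Abcg2, an efflux pump (0.47 ± 0.10), were dim: each was detected on all 6 antibody arrays but on 3 of 6 control arrays. Both needed the antibody arrays to pass the filter, which favours a higher mean. A second probe for Crem did not pass the filter. The adjusted p of the 12 ran from 0.275 to 0.422.

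Lower means were seen for Nr1d1, which encodes REV-ERB alpha, a repressor in the circadian clock. Its log2 intensity ran over 7.48, 7.81 and 8.77 in antibody ventricles, against 8.26, 8.91 and 9.31 in control ventricles. Antibody replicate 1 lay within the control range, and the other 5 antibody arrays lay below it. The log2 fold change was -0.87 ± 0.21 (SE), with an adjusted p of 0.325. Slc22a3, an organic cation transporter, ran over 7.01, 7.23 and 7.52 in antibody ventricles, against 7.62, 7.67 and 7.89 in control ventricles, with no overlap and a fold change of -0.46 ± 0.10. Fgf16, a growth factor of the heart, stood at -0.55 ± 0.12 and Efhd1, a mitochondrial calcium-binding protein, at -0.47 ± 0.11, with overlap in both. Rbm25, a splicing factor, had the smallest p of any probe but was dim, detected on no antibody array and on all 6 control arrays. Its difference of means is therefore given as a bound, at least 1.22-fold lower with antibody (limma adjusted p = 0.275). The probe ILMN_1351812, which has no gene name, was likewise undetected on every antibody array, with a mean at least 1.26-fold lower. Both probes passed the filter only through the control arrays, which favours a lower mean with antibody, and neither passed the adjusted threshold. P2rx4, an ATP-gated channel, was detected on 1 of 6 antibody arrays against all 6 control arrays, and Marcksl1, an actin-binding relative of MARCKS, on 2 of 6 against all 6. The log2 fold changes of P2rx4 and Marcksl1, -0.52 ± 0.11 and -0.63 ± 0.14, therefore rest on values near the background. Both also needed the control arrays to pass the filter, which again favours a lower mean. Over the 12 arrays, with group means taken out, the probes most correlated with Rbm25 were those of Pigm (Pearson r 0.963), Sqstm1 (0.947), ILMN_1358598 (0.885), Gdpd1 (0.877) and Trim6 (0.876); this is a description of 12 points whose Rbm25 values lie near the background.

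Several of the leading genes belong to a list of genes known to respond to glucocorticoids. Glucocorticoids act through the glucocorticoid receptor, which enters the nucleus, binds DNA and turns on genes such as Fkbp5, a co-chaperone that feeds back on the receptor, and Sgk1, a kinase that regulates sodium channels. Of 13 probes for this list on the array, 10 were tested, 9 had a higher mean with antibody and 1 a lower mean. At an unadjusted p below 0.05, 6 were higher and 0 lower, beside 2.47% higher and 3.09% lower over all tested probes. The gene lists, this one among them, were chosen with earlier results of these data known. The count is therefore a description and not a test of the list. None passed after adjustment. The median log2 fold change of the list was 0.35, against 0.0028 over all tested probes. With each array centred on its median, which shifted the median of all probes by -0.15, 6 of 10 had higher means, 3 were higher and 1 lower at that limit, and the list's median was 0.18, 0.33 above that of all probes. The 6 were Ddit4, Pdk4, Nfkbia, Tsc22d3, Fkbp5 and Sgk1, and the first 4 also belong to the 12 with the smallest p, so that count and the earlier naming are not separate observations.

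Fkbp5 ran over 9.66, 10.31 and 10.48 in antibody ventricles, against 9.43, 9.61 and 10.20 in control ventricles, with a log2 fold change of 0.46 ± 0.16 and an adjusted p of 0.729. Control replicate 3 lay near the 4 highest antibody arrays, and the lowest 2 antibody arrays lay near the other controls. Sgk1 ran over 9.99, 10.08 and 10.37 in antibody ventricles, against 9.53, 9.91 and 10.18 in control ventricles, with a fold change of 0.25 ± 0.11 and overlap between groups. Tsc22d3 ran over 11.54, 11.95 and 12.15 in antibody ventricles, against 11.16, 11.34 and 11.73 in control ventricles. Nfkbia ran over 11.30, 11.66 and 12.07 in antibody ventricles, against 10.96, 11.04 and 11.40 in control ventricles. In both genes a small overlap remained, from 1 or 2 arrays of each group. The other 4 tested members did not share the difference. Klf9, a transcription factor (0.01 ± 0.09), Lcn2, a secreted lipocalin (0.01 ± 0.12), and the clock gene Per1 (0.12 ± 0.12) had log2 fold changes within their SE. Dusp1, a phosphatase that shuts off MAP kinases, had a lower mean at -0.33 ± 0.23. Cdkn1a, Errfi1 and Zbtb16 did not pass the filter, and Errfi1, an inhibitor of the EGF receptor, was detected on 3 of 6 antibody arrays and on 0 of 6 control arrays.

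**Figure D2:**
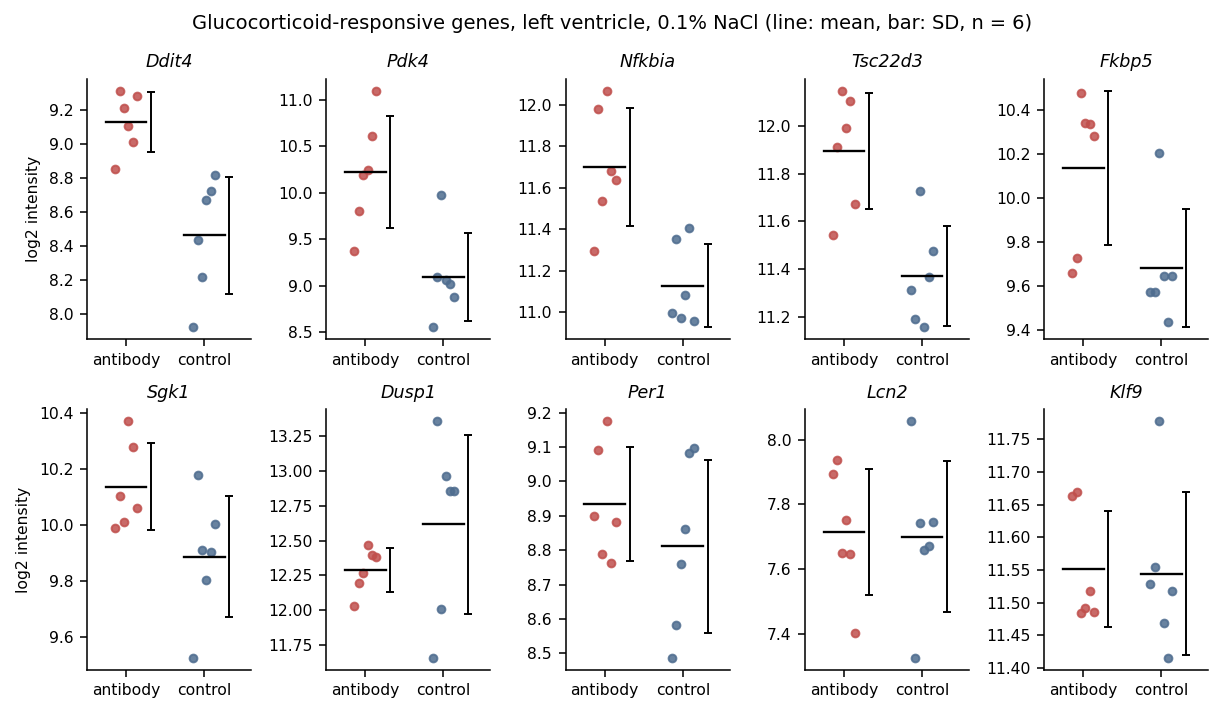
Log2 intensity (y axis) of the 10 tested glucocorticoid-responsive genes in the 6 antibody ventricles (left, red) and 6 control ventricles (right, blue), 1 point per animal, on 0.1% NaCl; lines are means and bars SD. Ddit4 alone shows no overlap, and Dusp1, Per1, Lcn2 and Klf9 do not share the higher means of the other 6.

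The sequence before the start of 2 of these genes is shown because Ddit4 was the member with no overlap and Nfkbia carries a match. Each is the 250 bases upstream of the transcript start in RefSeq's promoter table (GRCr8), 5′ to 3′ on the gene's strand, at chr20:28437038-28437287 on the minus strand for Ddit4 and chr6:78597073-78597322 on the minus strand for Nfkbia. Capitals mark the kappa B match.
Ddit4: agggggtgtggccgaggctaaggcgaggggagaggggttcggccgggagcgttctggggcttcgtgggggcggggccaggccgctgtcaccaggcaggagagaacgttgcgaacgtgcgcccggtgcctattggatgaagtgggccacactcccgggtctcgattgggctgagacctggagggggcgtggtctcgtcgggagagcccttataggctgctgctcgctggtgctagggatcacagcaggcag
Nfkbia: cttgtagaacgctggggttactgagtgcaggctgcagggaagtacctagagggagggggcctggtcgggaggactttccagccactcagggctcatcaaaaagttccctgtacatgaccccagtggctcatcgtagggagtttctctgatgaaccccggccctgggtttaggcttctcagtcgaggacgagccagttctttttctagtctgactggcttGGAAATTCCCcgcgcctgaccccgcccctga
Both strands of the 10 tested members' windows were searched for 4 motifs, spelled out here. The full glucocorticoid response element, searched as AGAACA and TGTTCT with 3 bases of any kind between them, was in 0 of 10 windows and in 0.012% of 33469 promoters in the table. Its half-site AGAACA, part of that element, was in 0 of 10 and in 17.5%. The E-box CACGTG was in 1 of 10, that of Dusp1, and in 5.59%. The kappa B motif, searched as GGGA and TTTCC with 1 base of any kind between them, was in 1 of 10, that of Nfkbia, where GGAAATTCCC starts 31 bases before the transcript start, and in 0.314%. The windows hold these letters or do not, and nothing is drawn from it about any factor.

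The clock genes were mixed. Of 13 probes 8 were tested, 6 with higher and 2 with lower means, and the list's median log2 fold change was 0.11. At an unadjusted p below 0.05, 2 were higher, Cry1 (0.44 ± 0.17) and Nfil3 (0.33 ± 0.12), and 2 lower, Nr1d1 and Bhlhe40. Over all tested probes the shares were 2.47% higher and 3.09% lower. The count of 2 higher was 0 with each array centred on its median and 0 in a fit of all 24 left ventricular arrays, and the count of 2 lower stayed at 2 in both. Centring on the median also put the list's median at -0.016. Cry1 is a repressor of the clock's activators and Nfil3 a repressor that acts against Dbp. Bhlhe40, a light- and hypoxia-responsive repressor, ran over 8.62, 8.96 and 9.64 in antibody ventricles, against 9.15, 9.69 and 10.14 in control ventricles, with a log2 fold change of -0.65 ± 0.18 and an adjusted p of 0.436. The other tested members, Per1, Per2, Dbp and Tef, had log2 fold changes between 0.08 and 0.18. Bmal1, Clock, Cry2 and Npas2 were detected on no array of either group.

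Genes of the extracellular matrix, the collagen scaffold around the muscle cells, leaned lower. Of 35 probes 30 were tested, 20 with lower and 10 with higher means with antibody, and the median log2 fold change was -0.081, against 0.0028 over all tested probes. At an unadjusted p below 0.05, 6 were lower and 0 higher, beside 3.09% and 2.47% over all tested probes, and none passed after adjustment. The count of 6 fell to 3 without antibody replicate 6, without control replicate 1, with array brightness as a covariate and in a fit of all 24 left ventricular arrays. It rose to 8 without antibody replicate 5. With 1 array left out the median of -0.081 ran from -0.17, without antibody replicate 1, to -0.035, without antibody replicate 6, and with each array centred on its median it was -0.23, 0.087 below that of all probes. Lox, the enzyme that cross-links collagen and elastin, ran over 6.28, 7.45 and 7.80 in antibody ventricles, against 7.80, 7.85 and 8.32 in control ventricles. The groups did not overlap, although the highest antibody and the lowest control array nearly met, and the log2 fold change was -0.72 ± 0.21 with an adjusted p of 0.587. The basement membrane collagens Col15a1 (-0.42 ± 0.11) and Col4a1 (-0.41 ± 0.14) were lower. Fbln5, which helps assemble elastic fibres, stood at -0.42 ± 0.18, the membrane-bound matrix protease Mmp14 at -0.41 ± 0.18 and Loxl2, a relative of Lox, at -0.34 ± 0.16. The fibrillar collagens that form scar tissue did not reach that limit: Col1a1 was at -0.40 ± 0.23, Col3a1 at -0.25 ± 0.16 and Col1a2 at 0.03. Lower RNA of a cell type's genes can reflect fewer such cells or less RNA per cell, and whole tissue cannot tell these apart. Fibroblast markers stood at a median of -0.067, with 5 of 9 lower and 0 past an unadjusted p of 0.05, and their part in the matrix result was not tested. Among these markers Col1a1, Col1a2, Col3a1, Dcn and Lum are also members of the matrix list, so the lists are not separate observations.

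The study's title names TGF-beta signalling, which drives matrix production through receptors and SMAD proteins. Of 28 probes for its ligands, receptors and SMADs 15 were tested, 6 with higher and 9 with lower means and 0 at an unadjusted p below 0.05, with a median of -0.028. The receptors tested were Acvr1, Acvrl1, Bmpr1a and Bmpr2, and no tested probe was for Tgfbr1, Tgfbr2, Tgfbr3, Eng or Smad3. The smallest p was that of Smad2, a receptor-activated SMAD, at -0.24 ± 0.13. Tgfb1 was at -0.12, Tgfb2 at 0.28 ± 0.31, Tgfb3 at 0.15 ± 0.14 and the inhibitory Smad7 at -0.31 ± 0.22. Of 9 tested target and fibroblast activation genes 7 had higher means, with a median of 0.13, and Lox was the only one past an unadjusted p of 0.05. Ccn2, a matricellular protein induced by TGF-beta, was at 0.41 ± 0.27 and Tagln, an actin-binding protein of smooth muscle, at 0.35 ± 0.17.

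Genes of marinobufagenin's own target and its signalling partners gave no member past an unadjusted p of 0.05. Of 15 probes for the sodium pump, ion transport and Src signalling 10 were tested, 5 in each direction and 0 at an unadjusted p below 0.05, with a median of 0.030. The pump's beta subunits Atp1b1, Atp1b2 and Atp1b3 were at -0.15 ± 0.11, -0.08 ± 0.14 and 0.08 ± 0.09, and its regulator Fxyd1, phospholemman, at -0.02 ± 0.18. The smallest p in the list was that of Prkcd, a protein kinase C, at -0.25 ± 0.12. The transcription factor Fli1, a repressor of collagen genes studied downstream of marinobufagenin, was at 0.19 ± 0.19.

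Lists for the working heart lay near 0. The medians were 0.034 for hypertrophy and fetal heart genes (15 probes tested), 0.0043 for calcium handling and contraction (16), 0.0045 for oxidative phosphorylation (26), 0.016 for fatty acid oxidation (25), -0.033 for glucose metabolism (16) and 0.011 for ribosomal proteins (22). In these 6 lists 3 probes passed an unadjusted p of 0.05: Pdk4 and Ucp2, an uncoupling protein of mitochondria (0.25 ± 0.11), were higher, and Cacna1c, the calcium channel of the heart beat (-0.23 ± 0.10), was lower. Over all tested probes 2.47% were higher and 3.09% lower at that limit. The counts here and in the lists that follow are not read as results about the lists. Immediate early and stress genes (24 tested, median 0.018) held 3 higher, Ddit4, Myc and Hmox1, and 2 lower, Junb at -0.60 ± 0.27 and Dnajb1 at -0.35 ± 0.16. Hmox1, the enzyme that breaks down haem, ran over 7.52, 8.17 and 8.85 in antibody ventricles, against 7.31, 7.38 and 7.97 in control ventricles, with overlap and a fold change of 0.63 ± 0.21. It was the only one of 26 redox probes past that limit (median 0.033). Inflammation genes (10 tested, median -0.056) held Nfkbia, interferon and antigen presentation genes (19 tested, median -0.032) held the class II gene RT1-Ba (0.54 ± 0.19), and cell cycle genes (6 tested, median 0.070) held Ccnb2 (0.40 ± 0.16), each higher. RT1-Ba and Ccnb2 were detected on all 6 antibody arrays but on 5 and 4 of 6 control arrays. Both needed antibody arrays to pass the filter, which favours a higher mean.

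**Figure D3:**
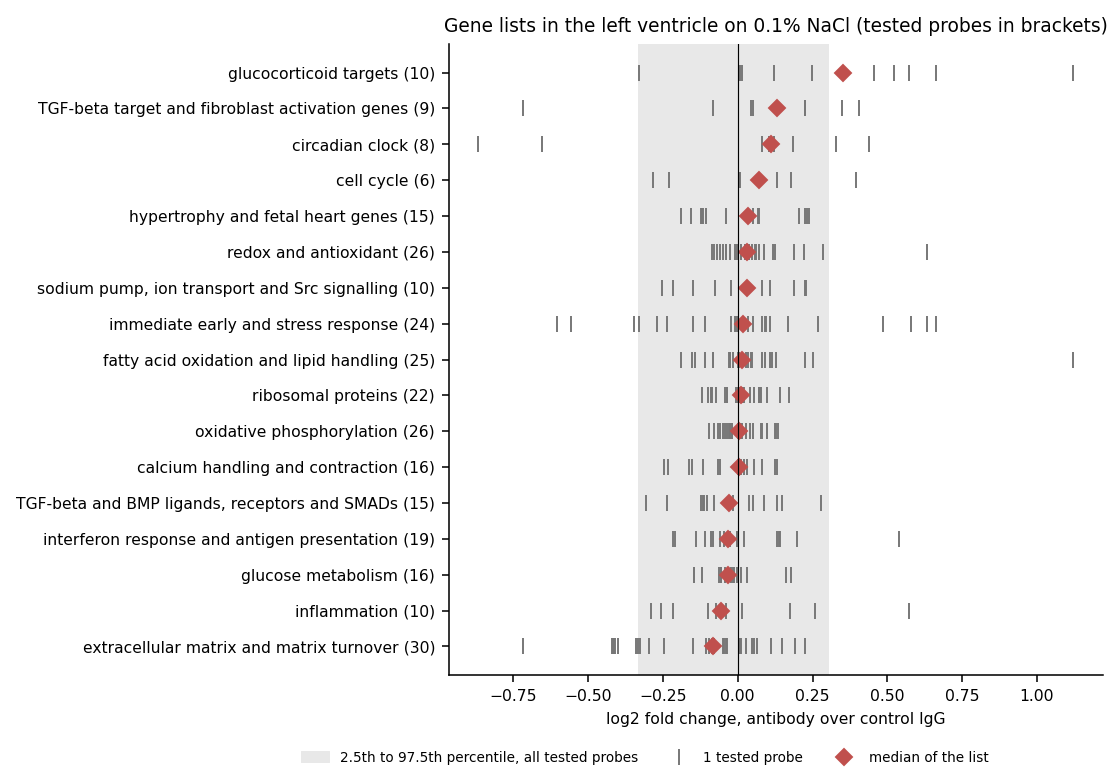
Log2 fold change, antibody over control IgG (x axis), of the tested probes of each gene list (grey ticks) and the list's median (red diamond), in the left ventricle on 0.1% NaCl; the grey band holds the central 95% of all tested probes. The median of the glucocorticoid-responsive list lies at 0.35 and that of the matrix list at -0.081, and the other medians lie between -0.056 and 0.13.

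Among the marker lists of other cells, 2 held probes past an unadjusted p of 0.05: 2 of 3 tested erythroid probes, Hbb-b1 and Hbb, and the mesothelial marker Wt1, each lower. Over all tested probes 3.09% were lower at that limit. Hbb-b1 ran over 12.01, 12.28 and 12.61 in antibody ventricles, against 12.31, 12.81 and 12.99 in control ventricles, and its log2 fold change was -0.42 ± 0.13. Hbb was at -0.39 ± 0.12, and the erythroid membrane protein Slc4a1 at -0.09 ± 0.16, so all 3 tested erythroid probes had lower means, with a median of -0.39. Ahsp, a stabiliser of alpha globin, was detected on 0 of 6 antibody and 5 of 6 control arrays, and Alas2 on none. Relative to each probe's mean over the 12 arrays, the median of the tested erythroid probes on an array ran from -0.50 to 0.09 in antibody and from -0.21 to 0.35 in control ventricles. The part of blood in the other differences was not tested. All 5 tested macrophage markers had higher means with antibody, with a median of 0.34 and 0 past an unadjusted p of 0.05. On an array, the median of these markers relative to their means ran from -0.56 to 0.58 in antibody and from -0.77 to 0.34 in control ventricles. C1qc was at 0.43 ± 0.22 and Mrc1 at 0.49 ± 0.33, and their part in the glucocorticoid-responsive and stress genes was not tested. Medians of the other marker lists were -0.074 for cardiomyocyte (10 tested), -0.063 for endothelial (7), 0.22 for atrial myocyte (3), 0.21 for smooth muscle and pericyte (2) and 0.051 for adipocyte probes (4). The atrial marker Myl7 varied widely: it was 12.99 in control replicate 6, against 5.87 to 7.27 in the other controls, and 6.22 to 10.93 in antibody ventricles. On an array, the median of the atrial probes relative to their means ran from -1.15 to 0.74 in antibody and from -0.62 to 0.63 in control ventricles. The part of atrial tissue in the other differences was not tested. The mesothelial (Wt1, -0.21 ± 0.10), skeletal muscle (Acta1, 0.20) and nerve (Npy, -0.06) lists had 1 tested probe each. The brain and liver lists share their only tested probe, Ttr (0.09).

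**Figure D4:**
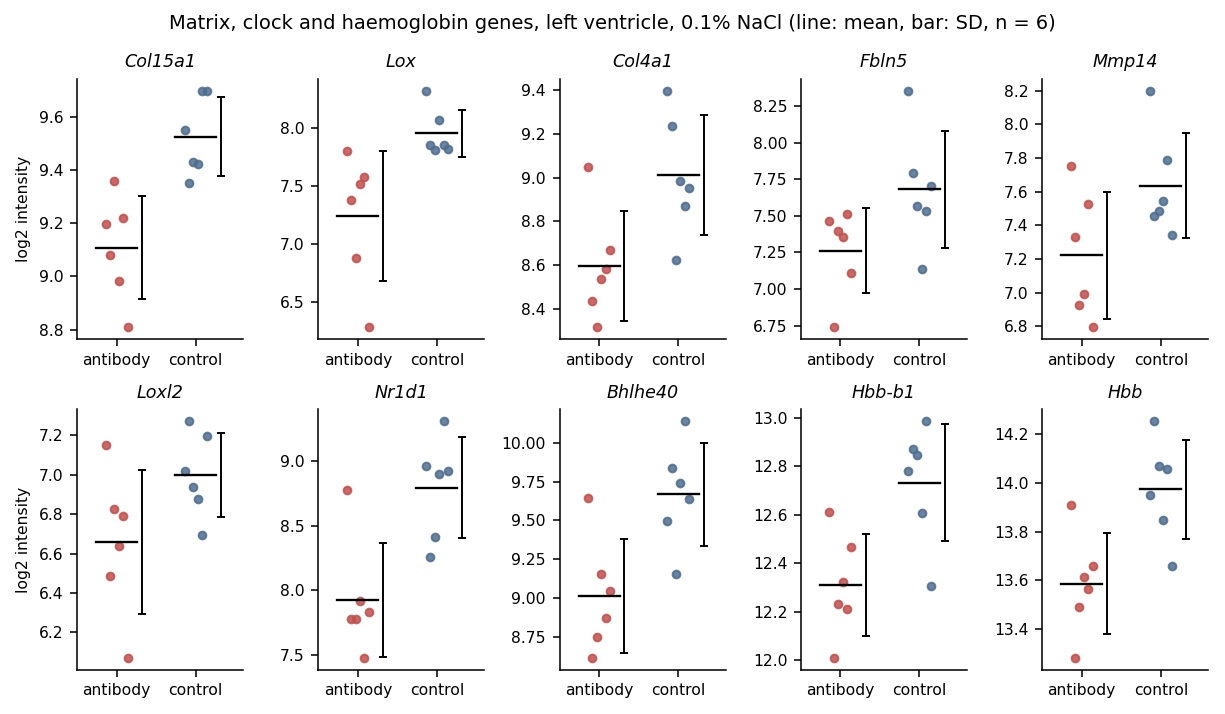
Log2 intensity (y axis) of the 6 matrix genes, 2 clock genes and 2 haemoglobin genes with the smallest p in their lists, in the 6 antibody ventricles (left, red) and 6 control ventricles (right, blue) on 0.1% NaCl, 1 point per animal; lines are means and bars SD. Means are lower with antibody in all 10, and the groups are separate only in Lox.

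The same animals' kidneys were measured on 12 further arrays, which makes the kidney a second readout of the same injections and not an independent group of rats. One kidney array stood apart. Control replicate 2 correlated with the other kidney arrays at 0.934 to 0.951, where each of the others had a median correlation of 0.983 to 0.990, so kidney values are given with and without it, a setting chosen after seeing the data. In the kidney 0 of 10518 probes passed (0%) in limma, with 633 higher (6.02%) and 877 lower (8.34%) at an unadjusted p below 0.05. Without control replicate 2 the counts were 0 passed, 775 higher and 1028 lower, and without antibody replicate 1 of the kidney 57 probes passed, Lox among them. Of the 10 glucocorticoid-responsive genes tested in the ventricle 8 had higher means in the kidneys of antibody animals, with a median of 0.29 against 0.0051 over all kidney probes. At an unadjusted p below 0.05, 3 were higher, Ddit4 at 0.60 ± 0.17, Fkbp5 at 0.66 ± 0.23 and Sgk1 at 0.72 ± 0.17, and 0 lower. Without control replicate 2 the median was 0.45, and 7 were higher at that limit and 0 lower. Ddit4 was then at 0.68 ± 0.17, Fkbp5 at 0.56 ± 0.22 and Sgk1 at 0.80 ± 0.16, and Per1, Nfkbia, Tsc22d3 and Dusp1 (0.46 ± 0.21, against 0.12 with that array) joined them. Pdk4, the widest difference of the ventricle, was at 0.12 ± 0.17 in the kidney, or -0.03 ± 0.11 without control replicate 2, but its log2 intensity there was 4.97 to 6.29 on all 12 arrays, near the background, and it was detected on 6 of 6 antibody and 4 of 6 control arrays. For the matrix list as a whole, of 30 tested members 14 had higher and 16 lower means in the kidney, with a median of -0.047, and 1 was higher (Timp2, an inhibitor of matrix proteases, 0.25) and 4 lower at an unadjusted p below 0.05. Without control replicate 2 the median was -0.034, again with 1 higher and 4 lower, and with 1 kidney array left out the lower count ran from 2 to 8. The 4 lower were Lox (-0.65 ± 0.19, without control replicate 2 -0.55 ± 0.18), Loxl2 (-0.53 ± 0.16, without it -0.55 ± 0.16), Col4a1 (-0.62 ± 0.25, without it -0.36 ± 0.12) and Mmp14 (-0.42 ± 0.17, without it -0.36 ± 0.17 and an unadjusted p of 0.0518). Col4a1 was 10.87 on control replicate 2, against 9.07 to 9.42 on the other control kidneys. Nr1d1 was at -0.68 ± 0.24 in the kidney, or -0.67 ± 0.25 without that array, Bhlhe40 at -0.02 ± 0.15 and Nfil3 at -0.30 ± 0.14, or -0.21 ± 0.11 without it. Cry1 had a higher mean in the kidney as in the ventricle, at 0.49, or 0.66 ± 0.17 without control replicate 2. Hbb-b1 and Hbb were at 0.78 ± 0.66 and 0.74 ± 0.63 in the kidney, or 0.46 ± 0.63 and 0.40 ± 0.59 without it, with means on the other side of 0 from the ventricle. The difference between tissues, ventricle minus kidney within each animal, was tested over 11208 probes: 0 passed (0%), the smallest adjusted p was 0.402, and 871 (7.77%) had an unadjusted p below 0.05; without the animal of kidney control replicate 2, 0 passed as well. No ventricular gene in the text can therefore be called particular to the heart. The median half-width of the 95% interval of that difference was 0.45 on the log2 scale, so differences between tissues smaller than that were mostly beyond its reach.

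**Figure D5:**
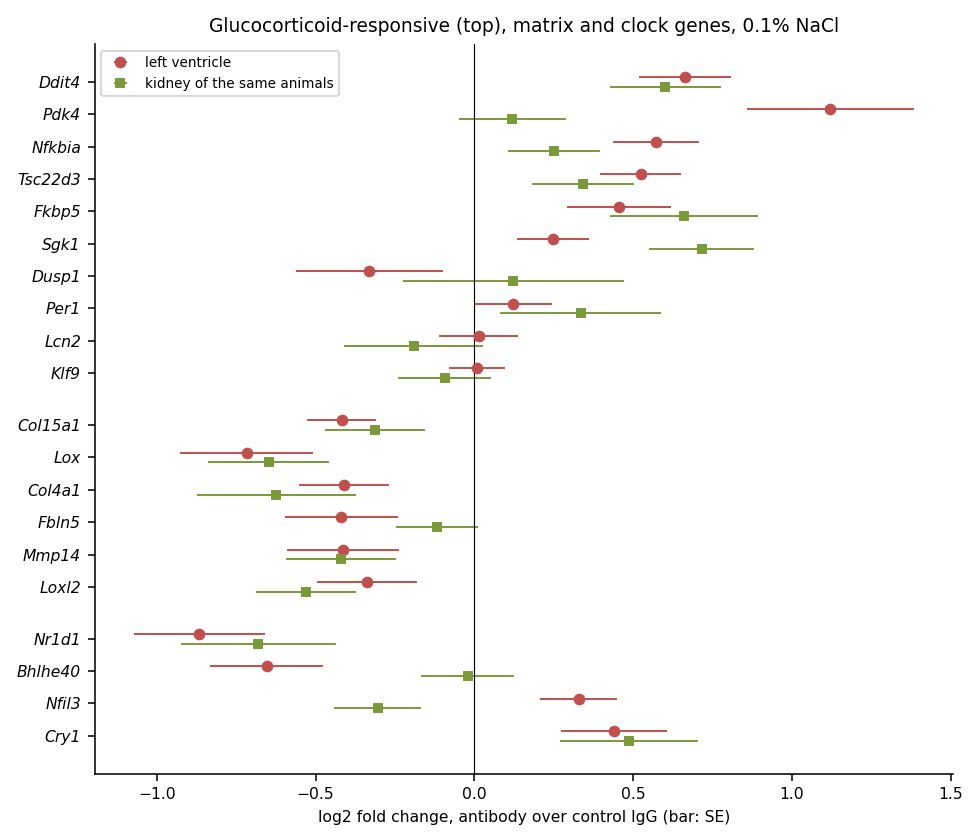
Log2 fold change, antibody over control IgG (x axis), with SE bars, in the left ventricle (red circles) and kidney (green squares) of the same 12 animals for 10 glucocorticoid-responsive genes (top), 6 matrix genes (middle) and 4 clock genes (bottom). Ddit4, Fkbp5 and Sgk1 lie right of 0 and Lox, Col4a1, Mmp14, Loxl2 and Nr1d1 left of 0 in both tissues. Kidney control replicate 2, which stood apart, is included, and without it Col4a1 is at -0.36 in the kidney; the kidney signal of Pdk4 lay near the background, and the difference between tissues did not pass for any gene.

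On 8% NaCl the same dose of antibody or control IgG was given to other animals, 6 arrayed in each group. Their left ventricular arrays were dimmer: the log2 95th percentile of signal averaged 7.88 in antibody and 8.65 in control arrays on high salt, beside 10.40 and 10.54 on low salt. The difference of the antibody effects, low minus high salt, passed for 280 of 8354 probes (3.35%; 1656 or 19.8% at an unadjusted p below 0.05), 214 with a higher and 66 with a lower effect on low salt. This count fell to 0 among probes detected on all 24 arrays, to 6 with each array centred on its median and to 32 with array brightness as a covariate. Values on low salt are those of the 12-array fit, and values on high salt and differences those of the 24-array fit. Among the named probes 3 passed. Fhl1, a LIM-domain protein of stretched muscle, had a log2 fold change of 0.23 ± 0.15 on low salt and -2.58 ± 0.40 on high salt, a difference of 2.80 with an adjusted p of 0.0016. Crem was at 0.46 on low and -0.74 on high salt, a difference of 1.14, and ILMN_1352831 at -0.48 and 0.76, a difference of -1.07. Over all probes 3.35% passed that test, and the count of list members past it is not read as a result about the lists. The other list members that passed, chosen after their values were seen, numbered 10. Of these, 5 had log2 fold changes on low salt between -0.08 and 0.15 and lower means on high salt: Col8a1 (0.15 and -2.23), Fap (-0.08 and -1.49), Nfatc4 (0.07 and -1.12), Egr2 (0.11 and -1.15) and Nfe2l2 (-0.08 and -1.24). Another 4 had higher means on low and lower means on high salt: Gstm1, a glutathione transferase (0.28 and -0.98), Egfl7, a secreted factor of the endothelium (0.23 and -0.77), and the macrophage markers C1qc (0.43 and -1.30) and Mrc1 (0.49 and -1.76). The ribosomal protein gene Rps24 went the other way (-0.10 and 0.92). None of the 10 glucocorticoid-responsive genes passed: their median was 0.35 on low salt and -0.15 on high salt, where all probes stood at -0.10.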

How the data were processed

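RNA of 12 left ventricles was measured on single-colour Illumina arrays of 22523 probes. The authors deposited linear probe intensities, not normalized, and each came with a detection p-value that the authors deposited beside it. The authors also deposited a score, the z-score of log10 intensity within an array, which was used as an alternative. GenomeStudio 2011.1 is listed, with no role, in the submitters' processing notes. The chip of each array was not given in the sources used here.

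The 12 arrays went through neqc (limma 3.58.1, R 4.3.3, offset 16), which corrects background and sets the arrays to common quantiles. Probes detected (p below 0.05) on 6 or more of the 12 arrays were fitted with lmFit and eBayes, antibody minus control, with Benjamini-Hochberg adjustment over all tested probes. The diet difference used all 24 left ventricular arrays with a weight per group, and the tissue difference used the ventricle minus kidney value of each animal. The fit was tested on simulated data. Of all probes 13793 have a gene name in GEO's platform annotation, 13752 of them matched to RefSeq by gene ID, and 8730 have none. The members, gene lists and tests were chosen with earlier results of these data known, and lists are described by counts and medians. Named are, per direction, the 12 largest log2 fold changes past the adjusted threshold or, where fewer than 6 passed, the 12 smallest p, plus each list's smallest p and every list member past the threshold. The number of arrays limits the precision. Same-numbered arrays of the 2 groups were not taken as pairs.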

Additional observations from a re-analysis of the deposited data

Results flagged for a closer look

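In 7 of 140 groups of probe values 1 array stood far from the other 5 of its group, where chance gives about 1 group in 20, and in 0 of 12 groups of array measures. Among antibody ventricles, Nr1d1 was 8.77 in replicate 1, against 7.48 to 7.92 in the others. Myc was 6.28 in antibody replicate 2, against 6.77 to 6.92 in the others, and ILMN_1351318 was 10.01 in antibody replicate 1, against 10.57 to 10.67. Among control ventricles, Fkbp5 was 10.20 in replicate 3, against 9.43 to 9.65, and Lum, a proteoglycan of the matrix, was 12.27 in replicate 1, against 11.21 to 11.60. RT1-Ba was 5.25 in control replicate 2, against 5.96 to 6.38, and ILMN_1352831 was 6.66 in control replicate 4, against 6.83 to 6.86.

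In limma, the low minus high salt difference of the antibody effects passed an adjusted p of 0.05 for 280 of 8354 probes (3.35%). The count depended on the processing and fell to 0 among probes detected on every left ventricular array of both diets. It was also lower with each array centred on its median and with array brightness as a covariate. The high-salt arrays were dimmer: the log2 95th percentile of signal averaged 7.88 (antibody) and 8.65 (control), beside 10.40 and 10.54 on low salt. Of the named probes, those among the 280 were Fhl1 (2.80), Crem (1.14) and ILMN_1352831 (-1.07), each a log2 difference of 2 antibody effects.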

How the results depend on the processing

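In each of the 25 alternatives 0 probes passed for the antibody effect on low salt; the smallest adjusted p ran from 0.0571, for Nr1d1 without antibody replicate 1, to 1 in a fit of all 24 left ventricular arrays. The count at an unadjusted p below 0.05 was 55 in that 24-array fit, 275 among probes detected on all 12 arrays and 1190 when dim probes were kept. Adding a replicate block gave 421, 0 probes passed and the smallest adjusted p was 0.407; same-numbered arrays correlated between -0.19 and 0.07, and none correlated best with its own number. Centring each array on its median shifted the median of all probes by -0.15 (1314 higher and 6556 lower). Under the same centring the glucocorticoid-responsive median was 0.18 and the clock median -0.016, and Uqcrb turned to -0.073 and Rpl3 to -0.015; the other 873 values of named probes kept their direction, and none passed. For the diet difference the count of 280 was 153 without weights, 6 with median centring, 32 with brightness as a covariate, 205 with the replicate block and 0 among probes detected on all 24 arrays. Leaving out 1 array gave 96 (high-salt antibody replicate 3) to 749 (high-salt antibody replicate 6); without high-salt control replicate 6 it was 541. For the ventricle minus kidney difference 0 probes passed in all 16 alternatives. Leaving out each kidney array in turn, a check chosen after seeing the data, gave 57 probes in the kidney without antibody replicate 1 and 0 in the other 11 fits. The causes were not tested.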
